A study of Mus musculus with 8 samples.

Results

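Gene expression was compared between BM-derived hepatocytes taken from the liver 5 months after transplantation (arrays G1 and G3) and Lin- BMCs, the kind of marrow cell that had been transplanted (arrays L3 and L4). These 4 arrays were chosen by their titles and are 4 of 8 in the series. The other arrays hold primary hepatocytes and BM-derived hepatocytes of 1 month, 2 of each. The comparison asks how far the RNA of the donor population and that of the cells recovered from the liver differ.

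The donors were young adult female C57Bl6/J mice with eGFP under the ubiquitin C promoter. Their marrow was depleted with antibodies to lineage antigens, among them Ter119, Gr-1, 7-4, CD45R, CD11b and CD5, and what was left is called Lin-. Recipients were young adult male hemophilia A mice, which lack working factor VIII, and received the cells by vein after an acetaminophen liver injury. Hepatocytes were freed by collagenase perfusion and a slow spin, and eGFP-positive cells were sorted. Recipients kept their own hepatocytes, so the sort on eGFP is what sets donor cells apart. By the study's text each array stands for pooled cells of several mice, and each group has 2 arrays.

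The 2 groups lie on different slides with different Agilent array designs, which were scanned apart. The designs share 0 probe names but 13991 probe sequences, of which 13977 were measured on every array, and only these were used. Levels below are log2 of the background-subtracted signal minus the 75th percentile of the array over the shared probes, so 0 is the level of a fairly bright probe. Slide, design and scan cannot be told apart from the groups in any value that follows. The lowest signal well above background lay between -5.92 and -5.42 on this scale over the 4 arrays. A gene with no probe well above background on either array of a group is given only a lower bound of its fold change. Dim probes were filtered out first, which left a probe for 9201 of 13214 gene names, and the brightest of the probes left stood for each gene. A gene is called when limma gives an adjusted p under 0.05 and the log2 change exceeds 0.6 in size. With 2 arrays against 2, an exact two-sided permutation test cannot go below 0.33, so tests rest on the spread pooled over all 8 arrays.

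Hepatocytes make most plasma proteins, dispose of nitrogen, release glucose, secrete bile and modify drugs, under transcription factors such as those of the HNF, FOXA and C/EBP families. Lin- marrow is rich in stem and progenitor cells that divide often and depend on factors such as GATA2, RUNX1 and LYL1. In bulk samples, fewer cells of a type and less RNA per cell cannot be told apart.

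Both labels were set against markers. At 5 months the liver markers with a shared probe, Alb, Ahsg, Apoa1 and Krt18, were all called higher, and the progenitor markers with one, Cd34 and Gata2, were called lower. Ttr, Cps1, Hnf4a, Krt8, Kit, Myb, Ptprc and Flt3 had no shared probe and were not analysed here. Of the antigens used for depletion, Cd5 read 1.97 and -0.02 in Lin- BMCs, and Cd5 was well above background on all 4 arrays. Ly6g, a gene of the Gr-1 antigen, read -2.56 and -6.63 in Lin- BMCs, with 1 of the 2 arrays well above background. Xist, the RNA made from the silenced X chromosome of female cells, read -2.78 and -3.92 in Lin- BMCs and -6.91 and -7.69 at 5 months. Both Lin- BMC arrays and neither 5-month array measured it above background, which puts it at least 4.68-fold lower (adjusted p = 0.0006 by limma), although the donors were female. The Y-linked Ddx3y was well above background on all 4 arrays, at 0.81 and -0.08 in Lin- BMCs and 1.16 and 0.95 at 5 months, and its change of 0.69 was not called (adjusted p = 0.106). Uty, also Y-linked, was well above background on all 4 arrays too, at -5.08 and -4.68 against -4.47 and -4.25, and was not called. Both Y-linked genes were thus measured in Lin- BMCs, although the donors were female. Means in primary hepatocytes were -8.19 for Xist, 1.08 for Ddx3y and -3.87 for Uty. These sex-linked genes were picked after their values were seen, and what they say of the origin of the cells was not tested.

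Of 9201 genes, 2700 were called higher and 3476 lower at 5 months, which is 29.3% and 37.8% of the genes tested and 67.1% in all. Among the 6816 genes well above background on all 4 arrays the shares were 28.8% and 33.3%, or 62.1% in all. The 2 arrays of a group differed by a median of 0.418 (L3 and L4) and 0.242 (G1 and G3) in size over the genes tested, whereas the groups differed by a median of 1.53. Beyond 5 on the log2 scale, 233 higher and 160 lower genes were measured on all 4 arrays. The split into higher and lower depends on the scale: higher genes made up 43.7% of calls here, 51.1% with normexp background correction and 23.2% (1532 higher and 5081 lower) when the arrays were scaled to spike-in controls. The median change of all genes was -0.30 here and -1.32 with spike-in scaling, and single changes are best read against this shift.

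The 12 largest rises were taken among genes measured on all 4 arrays. Akr1c6, a hydroxysteroid dehydrogenase, read -5.52 and -5.35 in Lin- BMCs and 8.28 and 8.49 at 5 months. The rise was 13.82 on the log2 scale (SE 0.23, adjusted p = 1.21e-07), and in Lin- BMCs the gene sat just over the lowest signal that counts as measured. Its probe lies on chromosome 13 of mm9, from 4456428 on. Ahsg, the plasma protein fetuin-A, read -4.60 and -4.45 against 9.05 and 9.03. Its rise of 13.56 (SE 0.20) was followed by those of Azgp1 (13.38), Hpx, the heme carrier hemopexin (13.31), Proc, the anticoagulant protein C (12.84), and Gsta3, a glutathione transferase (12.82). Cyp2d26, Gckr, Hc, Inmt, Tat and Slc38a3 completed the first 12, with rises from 12.34 down to 11.58. Gckr, a regulatory protein of liver sugar metabolism, read -5.46 and -5.64 in Lin- BMCs and 6.51 and 6.45 at 5 months. In none of these 12 did the groups come near each other, and the 5-month arrays were close together in all of them, with the widest gap in Inmt (6.76 and 7.16).

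The 12 largest falls were taken among genes measured on all 4 arrays. Spn, the leukocyte surface sialophorin CD43, read 5.01 and 4.96 in Lin- BMCs and -3.73 and -4.92 at 5 months. It fell by 9.31 on the log2 scale (SE 0.49, adjusted p = 1.13e-05). Gfi1b, a repressor needed for red cell and platelet precursors, fell by 8.61 (SE 0.71), from 2.73 and 4.12 to -5.16 and -5.20. Lyl1, a helix-loop-helix factor of blood stem cells, had the tightest values, 5.06 and 5.08 against -2.81 and -2.97, and fell by 7.96 (SE 0.21, adjusted p = 5.66e-07). The 9 others were Fut7, Mbp, Mns1, Ms4a4b, Tspan13, Dusp2, Ctsg, Cd3d and Cytip, with changes from -8.53 to -7.74. Ms4a4b and Cd3d are lymphocyte genes and Fut7 makes selectin ligands. Among them Ctsg, the neutrophil protease cathepsin G, differed most between the 5-month arrays, at -0.97 on G1 and -3.67 on G3, and Cd3d, a chain of the T cell receptor complex, differed most between the Lin- BMC arrays, at 4.67 on L3 and 2.26 on L4. Both genes were separated from the other group by far more than these gaps.

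**Figure D1:**
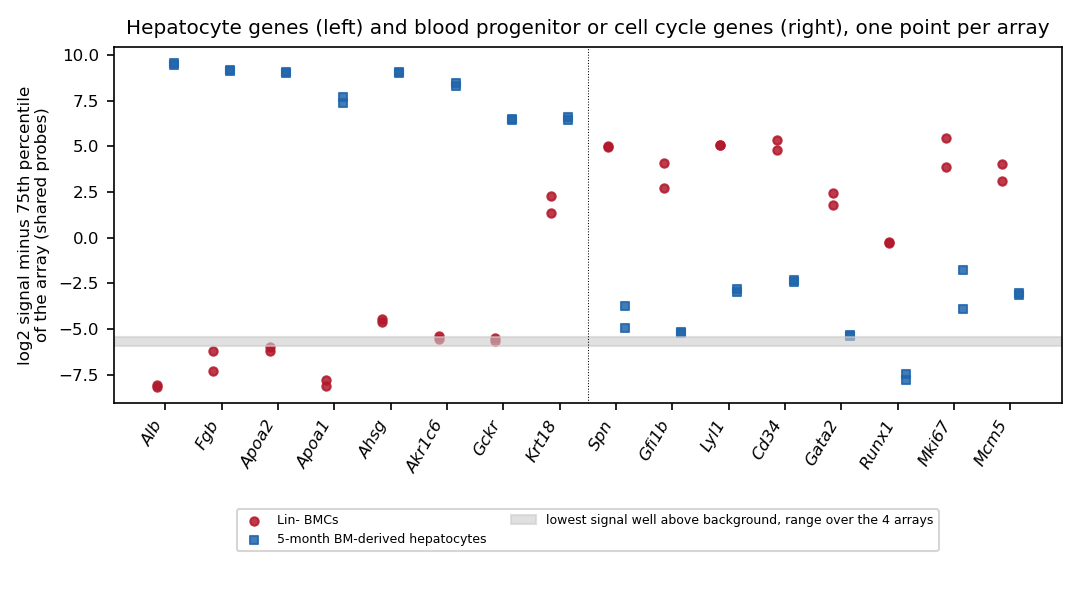
Level of each gene on each array, as log2 signal minus the 75th percentile of the array over shared probes, for 8 hepatocyte genes and 8 genes of blood progenitors or of the cell cycle; circles are the 2 Lin- BMC arrays, squares the 2 arrays of 5-month BM-derived hepatocytes, and the grey band is the range over the 4 arrays of the lowest signal well above background. The groups do not overlap in any of the 16 genes, and Alb, Fgb, Apoa2 and Apoa1 lie below the band in Lin- BMCs, as Runx1 does at 5 months.

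The hepatic transcription factors with a shared probe were 9 of 26 on the list, and all 9 were called higher, with a median change of 5.80 beside -0.30 for all genes. The 6 measured on all 4 arrays had a median change of 4.75. Nr5a2, a nuclear receptor that drives bile acid genes, read -5.28 and -5.19 in Lin- BMCs and 3.21 and 2.67 at 5 months, a rise of 8.18 (SE 0.31, adjusted p = 2.78e-06). Nr1i3, the drug sensor CAR, rose by 6.06, and Gata6, an endoderm factor, by 5.17. The related drug sensor PXR, encoded by Nr1i2, was not well above background in Lin- BMCs and was at least 374-fold higher. Foxa3, a factor that opens liver chromatin, was at least 79.1-fold higher by the same reasoning. Cebpa, the C/EBP factor of liver and also of myeloid cells, was already measurable in Lin- BMCs, at -0.87 and -1.55, and read 2.96 on both 5-month arrays, a rise of 4.17 (SE 0.30).

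Among plasma proteins 56 of 79 listed genes had a shared probe, 55 passed the filter, and 55 were called higher, with a median change of 11.96. In 33 of these 55 the Lin- BMCs were not well above background. The 19 measured on all 4 arrays had a median change of 9.38. Alb read -8.05 and -8.16 in Lin- BMCs and 9.44 and 9.55 at 5 months and was at least 42080-fold higher (adjusted p = 1.13e-07). Its probe starts at 90901598 on chromosome 5 of mm9. Fgb, the beta chain of fibrinogen, was at least 33030-fold and Apoa2, an apolipoprotein of high-density lipoprotein, at least 30900-fold higher. These folds are lower bounds set by background in Lin- BMCs.

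Enzymes of metabolism moved the same way. Of 43 tested genes of amino acid breakdown and the urea cycle, 42 were called higher, with a median change of 8.76. In 14 of the 43 the Lin- BMCs were not well above background. Of the 25 measured on all 4 arrays, 24 were called higher, with a median change of 5.14. Gnmt, which buffers S-adenosylmethionine, rose by 11.06 (SE 0.43), from -2.67 and -4.01 to 7.53 and 7.92. Agxt, which detoxifies glyoxylate, was at least 9804-fold higher, and Ftcd, of histidine breakdown, at least 6062-fold. The remaining gene, Oat, an aminotransferase of ornithine, had 1.47 and was not called.

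All 41 tested cytochrome P450 and conjugating enzymes were called higher, with a median change of 11.23. In 23 of the 41 the Lin- BMCs were not well above background. These 23 passed the filter through other groups, and the median includes their fitted values. The 16 measured on all 4 arrays were all called higher, with a median change of 7.72. Cyp2c70, an enzyme of bile acid hydroxylation in mice, rose by 11.20 (SE 0.23), from -3.52 and -3.77 to 7.45 and 7.65. Of the 18 genes of bile acid handling and the bile canaliculus, 18 were called higher. In 9 of these the Lin- BMCs were not well above background, and the 6 measured on all 4 arrays were all called higher. Cyp7b1, an oxysterol hydroxylase, rose by 9.61, while Slco1b2, the uptake carrier for bile acids and drugs, was at least 18190-fold and Abcc2, the canalicular export pump MRP2, at least 543-fold higher.

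Fatty acid oxidation was less distant between the groups, with 28 of 29 genes called higher and a median change of 3.71. These enzymes were mostly measurable in Lin- BMCs as well, 24 of 29 on all 4 arrays. Phyh, a peroxisomal enzyme of phytanate breakdown, read 1.63 and 0.99 in Lin- BMCs and 7.56 and 7.55 at 5 months, a rise of 6.24 (SE 0.30). Fabp1, the liver fatty acid carrier, was dim in Lin- BMCs and at least 24010-fold higher. Cpt1a, the liver form of the carnitine shuttle enzyme, was 2.42 and 2.52 against 3.55 and 3.63, and this change of 1.12 was not called (SE 0.47, adjusted p = 0.0723).

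The list for glucose production and glycogen held genes of both directions, 17 called higher and 3 lower of 21. Of the 15 measured on all 4 arrays, 12 were called higher and 2 lower. G6pc, the catalytic subunit of glucose-6-phosphatase, rose by 10.50 (SE 0.34) and Fbp1, fructose bisphosphatase, by 7.77. Uox, the urate oxidase that stands on this list without a part in glucose release, was at least 10480-fold higher. Those called lower were Akr1b10, an aldo-keto reductase, by -3.76, Pgm2, a phosphoglucomutase, by -3.40, and Gyg, the primer of glycogen chains. Pgm2 was well above background on 1 of the 2 arrays at 5 months. Gyg read 4.22 and 4.15 in Lin- BMCs and 1.65 and 1.79 at 5 months and fell by 2.47 (SE 0.26, adjusted p = 2.29e-04).

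Epithelial genes rose too: 19 of 20 tested junction and keratin genes were called higher, with a median change of 4.69. Of the 10 measured on all 4 arrays, 9 were called higher, with a median change of 2.78. Krt18, a keratin of simple epithelia, read 2.29 and 1.35 in Lin- BMCs against 6.62 and 6.47, a rise of 4.73 (SE 0.36). Dsp, which anchors keratin at desmosomes, was at least 118-fold higher, and a second probe of Dsp moved the same way by 2.98 against 7.24 for the one used. Cldn2, a pore-forming claudin of tight junctions, was at least 63.7-fold higher. The only gene of the list not called was Ctnnb1, which encodes beta-catenin, at -0.19.

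**Figure D2:**
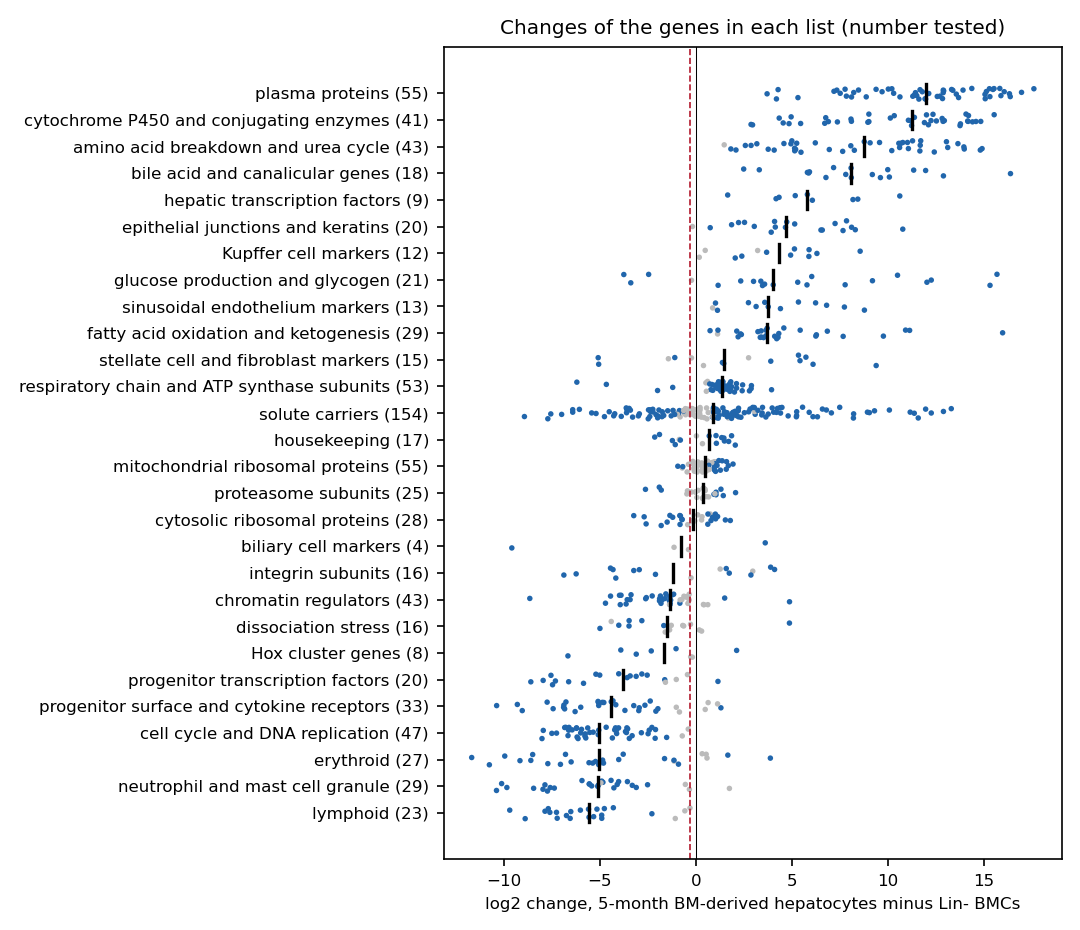
Log2 change of every tested gene of each list, 5-month BM-derived hepatocytes minus Lin- BMCs; blue points are called genes and grey points are not, black bars are medians, the dashed line is the median of all genes (-0.30), and values of genes that were dim in 1 group are fitted values and not bounds. Plasma proteins (median 11.96) lie at the top and lymphoid genes (median -5.60) at the bottom, with ribosomal, proteasome and housekeeping genes around 0.

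To show the sequence in front of genes that moved together, the 250 bases before the start site were read from RefSeq for the GRCm38.p6 build, which is not the build of the arrays. Matches were found for 6687 of 9201 tested genes, with 8120 promoters. Letters were searched on both strands for 8 of 9 motifs (TATAAA on the gene's strand alone): GTTAAT, the half-site of HNF1, AGATAA for GATA factors, GGAAGT for ETS factors, TGTGGT for RUNX factors, TTTCCCGC or TTTGGCGC for E2F, CCAAT for the CCAAT box, CAAAGTCCA for HNF4 and TTTGAA for the cell cycle element CHR. No pair of these motifs shares its letters in full. GTTAAT stood in 11 of 56 promoters of plasma protein genes (19.6%), in 4.74% of the promoters of tested genes and in 6.43% of 32851 promoters of the whole table. CAAAGTCCA stood in 0 of the 56 and in 0.357% of the promoters of tested genes. Matches are letters and not sites, and no test was made of these shares. The promoters of Alb at chr5:90460620-90460869 (+ strand), Fgb at chr3:83049864-83050113 (- strand) and Fabp1 at chr6:71199629-71199878 (+ strand) are shown because these genes gave some of the largest bounds and hold the half-site, in capitals.
Alb: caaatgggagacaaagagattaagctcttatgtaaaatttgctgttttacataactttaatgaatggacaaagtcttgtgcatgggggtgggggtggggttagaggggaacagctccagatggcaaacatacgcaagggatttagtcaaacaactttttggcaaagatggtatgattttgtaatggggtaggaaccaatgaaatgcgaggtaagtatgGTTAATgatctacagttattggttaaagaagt
Fgb: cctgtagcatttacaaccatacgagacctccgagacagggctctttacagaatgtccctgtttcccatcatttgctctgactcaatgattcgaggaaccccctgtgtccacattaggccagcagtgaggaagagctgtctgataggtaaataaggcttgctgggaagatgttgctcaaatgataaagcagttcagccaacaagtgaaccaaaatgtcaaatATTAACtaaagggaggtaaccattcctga
Fabp1: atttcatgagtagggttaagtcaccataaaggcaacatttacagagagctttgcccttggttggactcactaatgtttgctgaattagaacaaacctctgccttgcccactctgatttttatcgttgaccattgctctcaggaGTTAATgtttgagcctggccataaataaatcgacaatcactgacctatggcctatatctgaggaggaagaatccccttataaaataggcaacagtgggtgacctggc
In Alb and Fgb the first base of the match, read along the gene, lay 32 and 29 bases before the start, and in Fabp1 107 bases before it.

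On the falling side, CCAAT stood in 29 of 42 promoters of cell cycle and replication genes (69.0%, against 35.3% for tested genes and 33.8% in the whole table) and the E2F letters in 5 of 42 (11.9%, against 2.48% and 1.30%). AGATAA stood in 7 of 20 promoters of erythroid genes (against 6.97% for tested genes and 9.99% in the whole table). It also stood in 13 of 36 promoters of the P450 and conjugating enzymes (36.1%), all called higher. Shown are Mcm5 at chr8:75109259-75109508 (+ strand) and Mki67 at chr7:135716380-135716629 (- strand), with CCAAT (both genes) and E2F letters (Mcm5) in capitals, and Rhd at chr4:134864286-134864535 (+ strand) and Kel at chr6:41704326-41704575 (- strand), with AGATAA in capitals.
Mcm5: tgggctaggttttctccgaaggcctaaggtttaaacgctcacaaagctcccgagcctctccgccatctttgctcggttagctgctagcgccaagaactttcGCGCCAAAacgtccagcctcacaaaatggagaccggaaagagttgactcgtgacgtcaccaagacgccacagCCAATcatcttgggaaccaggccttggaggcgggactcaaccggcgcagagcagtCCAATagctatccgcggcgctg
Mki67: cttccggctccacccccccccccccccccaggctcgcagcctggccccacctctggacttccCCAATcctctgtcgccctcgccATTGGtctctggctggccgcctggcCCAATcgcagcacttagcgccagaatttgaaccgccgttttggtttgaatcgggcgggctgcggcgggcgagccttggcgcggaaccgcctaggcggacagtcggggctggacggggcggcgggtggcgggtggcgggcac
Rhd: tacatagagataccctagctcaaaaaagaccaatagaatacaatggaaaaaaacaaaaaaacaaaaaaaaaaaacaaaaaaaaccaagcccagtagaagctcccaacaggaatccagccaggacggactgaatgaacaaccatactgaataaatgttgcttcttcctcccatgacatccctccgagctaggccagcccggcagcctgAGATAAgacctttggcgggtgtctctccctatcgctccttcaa
Kel: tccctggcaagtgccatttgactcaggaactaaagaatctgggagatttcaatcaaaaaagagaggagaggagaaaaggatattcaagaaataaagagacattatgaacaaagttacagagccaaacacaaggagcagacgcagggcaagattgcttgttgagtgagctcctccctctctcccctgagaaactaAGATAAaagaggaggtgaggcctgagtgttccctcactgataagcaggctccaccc
Mcm5 held 3 matches and Mki67 3, and Rhd and Kel held 1 each.

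Genes of blood progenitors fell. Of 20 tested progenitor transcription factors, 16 were called lower, 1 higher and 3 not called, with a median change of -3.81. Of the 16 measured on all 4 arrays, 13 were called lower and 1 higher, with a median change of -3.73. Gata2, which maintains blood stem cells, read 2.46 and 1.81 in Lin- BMCs and -5.36 and -5.31 at 5 months, close to the limit of detection. Runx1, a master factor of definitive blood formation, was not well above background at 5 months and was at least 39.6-fold lower. Nfe2, a factor of megakaryocytes and red cells, fell by 6.64 with a larger error (SE 1.22, adjusted p = 2.92e-03). The exception was Cebpe, a late granulocyte factor, which read 2.41 and 1.46 in Lin- BMCs and 3.31 and 2.84 at 5 months. Its change of 1.14 was called (SE 0.36, adjusted p = 0.0274), but not without array L4 or array G1, nor with quantile or spike-in scaling.

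Surface and cytokine receptors of progenitors behaved alike, with 27 of 33 called lower and 1 higher, and a median change of -4.42. Of the 24 measured on all 4 arrays, 18 were called lower and 1 higher, with a median change of -3.11. Cd34, the sialomucin of stem cells and endothelium, read 5.33 and 4.79 in Lin- BMCs and -2.33 and -2.44 at 5 months, and fell by 7.44 (SE 0.57, adjusted p = 6.12e-05). Selplg, the P-selectin ligand, fell by 6.84 and Itgb7, a homing integrin, by 6.89. Cxcr4, the receptor that holds stem cells in the marrow, was at least 131-fold lower, and the receptor genes Il7r and Il18r1 at least 276-fold and 125-fold lower. Cd164, a widely made sialomucin, rose by 1.30 (SE 0.24), which was lost with quantile and spike-in scaling.

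Granule genes of neutrophils and mast cells were called lower in 25 of 29, and none higher. Only 9 of the 29 were measured on all 4 arrays, and 7 of these were called lower, with a median change of -4.28. Prss34, a mast cell and basophil protease, was at least 691-fold lower, Mcpt8 at least 308-fold and Cpa3 at least 231-fold. Chil3, a chitinase-like protein of myeloid cells, spread most, at 5.22 on L3 and 1.12 on L4, and at -0.31 on G1 and -4.48 on G3, and its change of -5.56 (SE 1.63) was lost without L3 or without G3. Erythroid genes were called lower in 21 of 27 and higher in 2, with a median change of -5.07. In 10 of the 27 the 5-month arrays were not well above background. Of the 16 measured on all 4 arrays, 10 were called lower, 2 higher and 4 not called, with a median change of -1.395. Rhd, of the Rh blood group, was at least 384-fold and Kel, of the Kell group, at least 116-fold lower. Alas2, the erythroid enzyme that starts heme synthesis, nevertheless read 3.45 and 3.56 at 5 months against 1.91 and 1.79 and rose by 1.66 (SE 0.30, adjusted p = 2.75e-03), and Hebp1, a heme-binding protein, rose by 3.87. The call for Alas2 was lost with spike-in scaling. Primary hepatocytes, on the slide of the 5-month arrays, had a mean of 3.55 for Alas2, and the 1-month arrays, on the slide of the Lin- BMCs, a mean of 3.61. Of 23 lymphoid genes, 20 were called lower and none higher. Of the 13 measured on all 4 arrays, 11 were called lower, with a median change of -5.58. Il2rb, a chain of the interleukin receptors, fell by 7.27, and Cd8a was at least 221-fold lower, with a second probe at -4.60 against -9.70 on the log2 scale.

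Cell cycle and replication genes were called lower in 45 of 47, with none higher and a median change of -5.07. Of the 34 measured on all 4 arrays, 32 were called lower, with a median change of -4.22. Mki67, the proliferation antigen, read 3.89 and 5.46 in Lin- BMCs and -1.76 and -3.92 at 5 months, and fell by 7.51 (SE 0.91). Mcm5, of the replicative helicase, was at 3.12 and 4.06 against -3.05 and -3.12 and fell by 6.67 (SE 0.55, adjusted p = 8.30e-05). Genes of spindle and kinetochore, Cenph, Tpx2 and Bub1, were at least 85.7-fold, 62.3-fold and 59.9-fold lower, and a second probe of Tpx2 gave -4.04 on the log2 scale. Mcm6, Mcm4, Mcm3 and Mcm2 fell by 5.53 to 5.96.

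Chromatin regulators fell less far, with 28 of 43 called lower, 2 higher and a median change of -1.38. Over all genes tested 37.8% were called lower and 29.3% higher. Ezh2, the methyltransferase of Polycomb complex PRC2, read 2.23 and 3.15 in Lin- BMCs and -1.79 and -2.27 at 5 months, and fell by 4.72 (SE 0.36, adjusted p = 5.81e-05). Dnmt1, the maintenance DNA methyltransferase, fell by 3.99 and Mtf2, a PRC2 partner, by 3.44. Kdm6a, an H3K27 demethylase, had -0.52 and was not called (adjusted p = 0.168), and Ep300, a histone acetyltransferase, fell by 1.36. Satb1, an organiser of lymphoid chromatin, was at least 269-fold lower. Against the others Hdac11 rose by 4.87 (SE 0.32), from -4.79 and -5.26 to -0.45 and 0.13, and Tet1 by 1.49, the latter not called with spike-in scaling. Kdm6b, Setdb1 and Kmt2a had no shared probe.

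Within gene families the members made in liver and in other tissues often went different ways. For glucose transporters, Slc2a2 (GLUT2, the form of liver) was at least 1117-fold higher, while Slc2a3 (GLUT3) read 0.91 and 0.51 in Lin- BMCs and -5.89 and -4.84 at 5 months and fell by 6.08 (SE 0.50), with 1 of the 2 arrays at 5 months well above background. The change of Slc2a1 (GLUT1) was 0.42 (SE 0.43) and did not reach the threshold (adjusted p = 0.412), though it passed without L3 at 1.05. Glycogen phosphorylase showed the same pattern, with Pygl, the liver form, up by 3.57 (SE 0.30) and Pygb, the brain form, which fell by 1.95 (SE 0.64, adjusted p = 0.0325). The call for Pygb was lost without L3, L4 or G3 and with normexp or quantile normalization.

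Mat1a, the methionine adenosyltransferase of adult liver, was at least 3481-fold higher, and Mat2a, the form of other tissues, fell by 1.25 (SE 0.32), from 5.53 and 6.19 to 4.61 and 4.60, a call lost without L4, G1 or G3. Among connexins Gjb2 read -7.22 and -4.63 in Lin- BMCs against 4.94 and 4.76, and 1 of the 2 Lin- BMC arrays was well above background. Gja1, the main connexin of heart, fell by 2.75 (SE 0.84), a call lost without L4, G1 or G3 and with normexp. Of the hexokinases, Hk2 fell by 5.34 and Hk3 by 3.53, and Hk1 went the other way by 1.37 (adjusted p = 0.0443). The array designs disagree on the name of the Hk1 probe, and its call was lost when any 1 of the 4 arrays was left out. Gata6 rose as Gata2 fell. In isocitrate dehydrogenases the cytosolic Idh1 rose by 5.28 and Idh3a of the citric acid cycle fell by 1.63, the latter not called without L4 or G1. Both long-chain acyl-CoA synthetases with a shared probe rose, Acsl1 from 2.51 and 3.07 to 7.03 and 6.96, and Acsl5 by 2.19, which was not called with spike-in scaling. Aldoa, Pkm, Gata1, Gjb1 and other partners had no shared probe, so most families could be followed in part only.

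**Figure D3:**
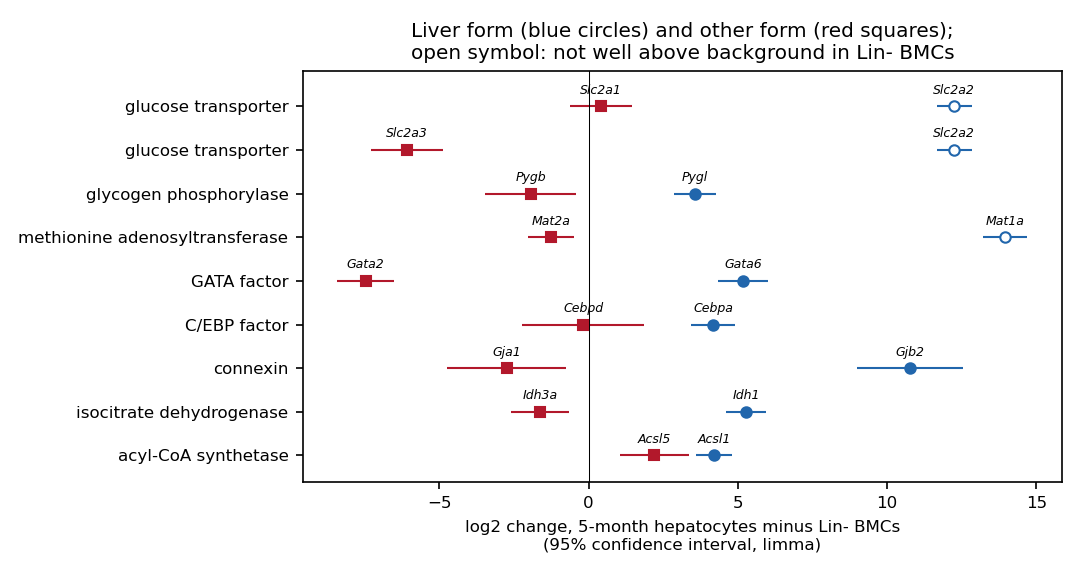
Log2 change with its 95% confidence interval from limma for pairs of family members, 5-month BM-derived hepatocytes minus Lin- BMCs, blue circles for the form listed for liver and red squares for the other form; open symbols were not well above background in Lin- BMCs, where only a lower bound holds. Acsl5 is drawn as a red square although it is also listed for liver. In 6 of the 9 pairs both members were called and lay on opposite sides of 0, and Slc2a1 and Cebpd had intervals that include 0. Slc2a2 stands in both glucose transporter pairs. Other forms that were tested but not plotted went both ways: Cebpe, Alas2 and Hk1 rose, and Hk2, Hk3 and Ezh2 fell.

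Of 53 subunits of the respiratory chain and ATP synthase, 46 were called higher and 4 lower, with a median change of 1.34. The median change of all genes moved from -0.30 to -1.32 with spike-in scaling, so the size of this rise depends on the scale. L4 was above L3 in 49 of the 53, with a median difference of 0.42. Uqcrq, of complex III, read 4.88 and 5.40 in Lin- BMCs and 7.99 and 8.03 at 5 months, a rise of 2.87 (SE 0.24). Those called lower included Cox6a2, a heart and muscle form of a cytochrome oxidase subunit, which fell by 6.21 (SE 0.33), from 1.51 and 2.16 to -4.38 and -4.37, and Cox6b2, known from testis, which fell by 4.67. Cox6b2 was not low on the other arrays: its mean was 1.26 in primary hepatocytes, and its change at 1 month was -0.62. Mitochondrial ribosomal proteins were called higher in 16 of 55, a share close to that of all genes, and lower in 2, with a median change of 0.49, and 17 had an interval within -1 to 1. All 55 were higher on L4 than on L3, so the 2 Lin- BMC arrays differ there.

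Cytosolic ribosomal proteins gave 9 higher, 12 lower and 7 not called of 28, with a median of -0.15. These shares were near those of all genes tested, 29.3% called higher and 37.8% called lower. Rpl7a rose by 1.53 (SE 0.26), not called with quantile or spike-in scaling, and Rpl31 fell by 3.24 (SE 0.29), from 0.88 and 1.57 to -1.91 and -2.13. Processed copies of these genes are common in the mouse genome and the probe letters do not tell which copy was read, so single members are uncertain. Of 25 proteasome subunits 6 were called higher, 3 lower and 16 not called, beside 29.3% higher and 37.8% lower over all genes tested. The median change was 0.38, and 8 had an interval within -1 to 1. The interferon-inducible subunits Psmb8 and Psmb9 fell by 2.63 (SE 0.26) and 1.91, whereas the constitutive Psmb5 and Psmb7 rose by 1.30 and 2.06, Psmb5 not under quantile or spike-in scaling. The third gene called lower, Psmd14, a constitutive subunit of the regulatory cap, fell by 1.81.

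Of 16 tested integrin subunits 8 were called lower and 5 higher, shares near those of all genes. The leukocyte subunits Itgb2 and Itgal fell by 3.24 and 2.96 and Itgb3 of platelets by 4.32, and Itga11, a collagen receptor subunit, was at least 7.76-fold lower, whereas Itgb5 rose by 4.09, Itga8 by 2.86 and Itgb1, the common partner, by 1.57 (SE 0.23), the last not called with spike-in scaling. Of 154 solute carriers 73 were called higher and 44 lower, beside 29.3% and 37.8% of all genes tested. Slc38a4, an amino acid carrier of liver, was at least 2129-fold higher, and Slc38a1, its relative in dividing cells, fell by 7.57 (SE 0.61), with a second probe at -4.78. Slc1a5 and Slc7a5, carriers for glutamine and large neutral amino acids, fell by 6.42 and 5.44, though a second probe of Slc7a5 gave -0.71. Of the Hox genes 21 had a shared probe and 8 passed the filter. Of these 8, 5 were called lower and 1 higher, beside 37.8% and 29.3% of all genes tested. The gene called higher was Hoxb5, at 2.12 (adjusted p = 0.00429), with 1 of the 2 Lin- BMC arrays well above background and no call with spike-in scaling. Hoxa7, active in blood progenitors, read 1.77 and 1.53 against -5.25 and -4.79, and fell by 6.67 (SE 0.31).

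Markers of other liver cells were also higher at 5 months. Of 12 tested Kupffer cell markers 9 were called higher and none lower, with a median change of 4.30. In 3 of the 12 the Lin- BMCs were not well above background, and these passed the filter through other groups. Of the 7 measured on all 4 arrays, 4 were called higher and 3 not called, with a median change of 2.39. Clec4f, a lectin of Kupffer cells, was at 1.81 and 2.24 at 5 months and not well above background in Lin- BMCs, at least 238-fold higher. Marco, a scavenger receptor of macrophages, read -2.85 and -3.46 against 3.36 and 2.10, a rise of 5.89 (SE 0.87), and had a mean of -1.98 in primary hepatocytes. For Cd5l, a secreted macrophage protein, the Lin- BMC arrays differed widely, at -4.66 and -0.36, against 3.24 and 3.49. Unlike Marco, Clec4f and Cd5l had means in primary hepatocytes nearer those of 5 months, 0.89 and 1.85.

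Sinusoidal endothelial markers were called higher in 12 of 13, with a median of 3.76. Of the 8 measured on all 4 arrays, 7 were called higher, with a median of 3.445. Clec4g, a lectin of these cells, read -4.54 and -4.25 in Lin- BMCs and 3.12 and 3.55 at 5 months, a rise of 7.73 (SE 0.25). Kdr and Flt1, the receptors for vascular endothelial growth factor, rose by 4.40 and 3.76. Primary hepatocytes were close in these genes, with a mean of 2.73 for Clec4g and 1.66 for Kdr.

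Stellate cell and fibroblast markers were mixed, with 8 higher, 3 lower and 4 not called of 15. Over all genes tested 29.3% were called higher and 37.8% lower. Of the 9 markers measured on all 4 arrays, 3 were called higher, 3 lower and 3 not called. Lrat, which stores retinol in stellate cells, was at least 11.7-fold higher, and Tagln, a smooth muscle protein, rose by 5.42. Vim fell by 5.07 (SE 0.38), and Col1a2, a collagen chain, fell by 5.10 with arrays far apart in Lin- BMCs (1.86 and 5.86), a call that was lost without L4, G1 or G3. Of 4 biliary markers tested, Sox9 was at least 4.83-fold higher, a call lost without any 1 of the 4 arrays, and Cd24a, which blood cells also make, fell by 9.60, with 1 of the 2 arrays at 5 months well above background. The part that cells other than hepatocytes had in the sorted samples was not tested.

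**Figure D4:**
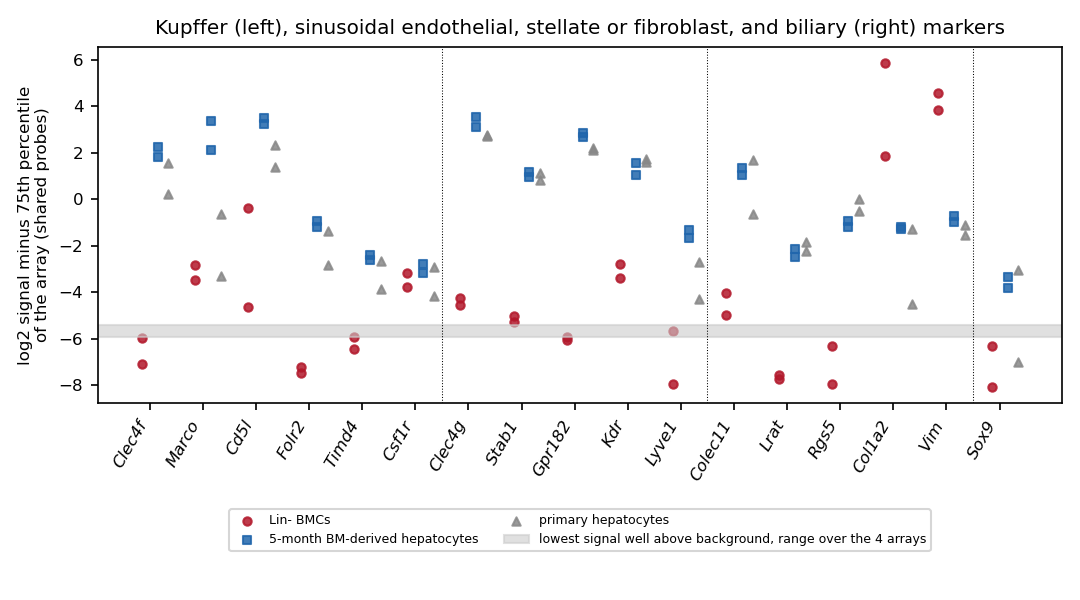
Level of markers of Kupffer cells, sinusoidal endothelium, stellate cells or fibroblasts, and biliary cells on each array, as log2 signal minus the 75th percentile over shared probes; circles are Lin- BMCs, squares 5-month BM-derived hepatocytes, triangles primary hepatocytes, and the grey band is the range of the lowest signal well above background over the 4 arrays compared. Most markers lie higher at 5 months than in Lin- BMCs, and Marco (3.36 and 2.10) lies above primary hepatocytes, while Vim and Col1a2 lie lower.

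The replicates were not equal in all groups of genes. Over 2 log2 units separated L3 and L4 in 266 genes and G1 and G3 in 81. L4 was above L3 in 26 of 27 erythroid genes (median difference 1.59) and in 45 of 47 cell cycle genes (median 0.94), and below it in 24 of 29 granule genes (median difference -1.10) and 30 of 33 progenitor receptors (median -0.61). Genes of dissociation stress were called lower at 5 months in 6 of 16, near the share of all genes tested (37.8%). In 1 of the 16 the call was higher, beside 29.3% of all genes tested. These genes also differed between the Lin- BMC arrays, by a median of -1.04. Nr4a1, an immediate early factor, read 5.61 and 4.32 in Lin- BMCs and 0.15 and -0.23 at 5 months, and Gadd45g, the gene called higher, rose by 4.87 (SE 0.84). On the 5-month arrays G1 was above G3 in 20 of 29 granule genes, with a median difference (G3 minus G1) of -0.88.

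**Figure D5:**
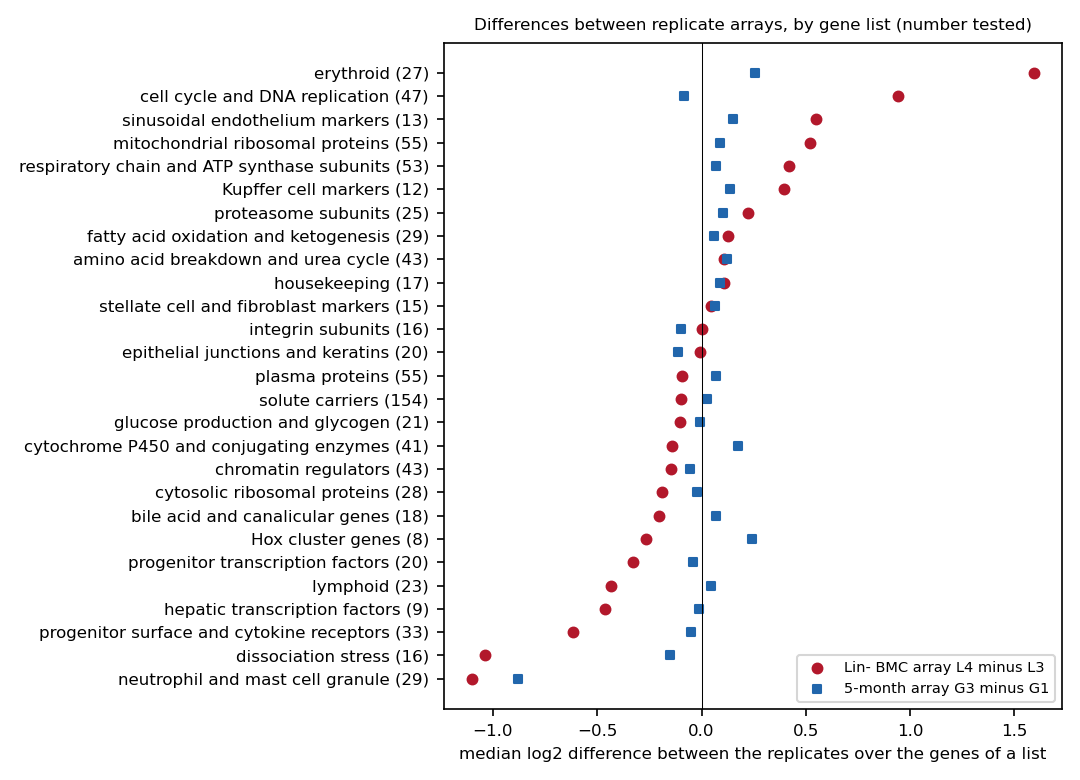
Median difference between the 2 arrays of a group over the genes of each list with 8 or more tested genes, on the log2 scale, circles for Lin- BMCs (L4 minus L3) and squares for 5-month BM-derived hepatocytes (G3 minus G1). The Lin- BMC arrays range from -1.10 (granule genes) to 1.59 (erythroid genes), and the 5-month arrays from -0.88 (granule genes) to 0.25 (erythroid genes).

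In 923 of 9201 genes the 95% confidence interval of the change lay within -1 to 1, and 3025 genes were not called. The number of such close genes was 3454 with normexp and 346 without G1. Housekeeping genes were not level: of 17 tested, 9 were called higher and 5 lower, beside 29.3% and 37.8% of all genes tested. Eef1a1, a translation elongation factor, rose by 2.05 (SE 0.23), B2m by 1.70 and Tbp, the TATA-binding protein, fell by 2.15, while Hprt fell by 1.08 (SE 0.21). The call for B2m was lost with quantile and spike-in scaling and that for Tbp with normexp. Gpi1, a glycolytic enzyme, had 0.02.

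Values of the 1-month arrays, which share the slide and design of the Lin- BMCs, were set beside the 5-month values. Both comparisons use the same 2 Lin- BMC arrays, so their likeness is not a result. For Akr1c6 the values were 13.82 at 5 months and 14.34 at 1 month, for Gata2 -7.47 and -7.08, for Lyl1 -7.96 and -6.94 and for Mki67 -7.51 and -8.50. The difference between 5 months and 1 month passed for Lyl1 (-1.03, adjusted p = 0.024 by limma) and not for Akr1c6, Gata2 or Mki67. The part of the slide in these values was not tested. Other genes differed more between the ages: Hprt had -1.08 at 5 months and 0.15 at 1 month, Rpl7a 1.53 and 0.23, and Itgb1 1.57 and 0.00.

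Spike-in RNAs of the labelling kit gave another view of the slides. Of 10 spike-in probes with the same sequence on both designs, 8 were above background on all arrays. Their raw log2 signals were higher at 5 months than in Lin- BMCs by a median of 0.42 (0.03 to 1.40), and by 0.93 (0.53 to 1.90) after the 75th percentile was subtracted. If arrays are set to these probes, changes move down by about the same amount, and the 75th percentile scale used above is relative to the other genes of each array.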

How the data were processed

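Single-colour Agilent arrays of 2 designs were scanned and read by Feature Extraction, and per the file headers the deposited intensity of each spot is background-subtracted, with no scaling between arrays and with probe positions on mm9. The authors also deposited log2 values, made in GeneSpring by a shift to the 75th percentile of each array, which served as an alternative. Array hybridization started from pooled cells, so p-values measure the spread between these arrays.

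Probes were matched between designs by identical sequence. Flagged spots were left out, and of 13991 shared sequences 13977 had at least 1 unflagged spot on each of the 8 arrays. Signals were log2 transformed and the 75th percentile over these probes was subtracted. A probe was kept where each array of 1 or more of the 4 groups measured it well above background, and the brightest kept probe stood for a gene. limma (3.58.1, in R 4.3.3) was fitted to all 8 arrays with 4 group means, which leaves 4 residual degrees of freedom, and Benjamini-Hochberg adjustment covered the whole gene table. A call needed an adjusted p below 0.05 together with a log2 change larger than 0.6 in size. A bound of a fold change sets the brighter group's mean against a floor on each array of the dim group. This floor was the lowest signal well above background or the gene's own signal, whichever was higher. Gene names came from accessions (11813 probes), from symbols (1031) or from the array (1133).

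Named genes were the largest rises and falls measured on all 4 arrays, the leading genes of each list and the family members listed, apart from genes said to be picked after their values were seen and single list members given beside a count. A few items named by this rule are not reported here. Members and lists were chosen with earlier results of these data known. The script was tested on simulated data. The number of arrays limits the precision. Other backgrounds, scalings, filters and tests, and each array left out, were tried as alternatives.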

Additional observations from a re-analysis of the deposited data

Results flagged for a closer look

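In a pair of genes the 5-month and 1-month groups moved in opposite directions from the same 2 Lin- BMC arrays, and the test of the difference between 5 months and 1 month passed. Acta2, smooth muscle actin, read -3.28 and -3.38 in Lin- BMCs, -4.50 and -4.37 at 5 months and -2.67 and -1.92 at 1 month, which is -2.14 for 5 months minus 1 month. Hoxa6, a homeobox gene, read -4.21 and -4.29 in Lin- BMCs, -5.49 and -5.10 at 5 months and -3.47 and -3.03 at 1 month, which is -2.04. With normexp background correction the change from Lin- BMCs to 5 months was 0.09 for Hoxa6, so that the directions were no longer opposite, and -0.06 for Acta2, which was not called. Both 5-month calls were also lost without any 1 of the 4 arrays. The 5-month and 1-month arrays lie on different slides, which cannot be told apart from the time after transplantation.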

How the results depend on the processing

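Of 256 named genes 241 were called, and 187 of these kept their direction and their side of the threshold under each of the 15 other settings in which they were measured. Over all genes, 1424 of those called higher (52.7%) and 1793 of those called lower (51.6%) were called the same way in every setting other than the stricter filter. Spike-in scaling left 1532 genes called higher. Genes with an interval within -1 to 1 numbered 3454 with normexp background correction, 271 with spike-in scaling and 1905 without a filter on dim probes, which tests 13214 genes. For genes not well above background at 5 months, called lower, normexp gave 328 in place of 940. The causes were not tested.

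Leaving out 1 array at a time gave 2158 (without G3) to 2525 (without L4) genes called higher, 2848 (without G3) to 3148 (without L4) called lower, and 346 (without G1) to 712 (without L4) close to no difference. The number of genes not well above background in Lin- BMCs, called higher, ranged from 526 to 535, and that of genes not well above background at 5 months, called lower, from 815 to 856.

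Some named genes changed sign. With normexp these were Cox8b (0.10), Hoxa6 (0.09) and Muc1 (0.30), and with quantile normalization Rpl36 (-0.51) and Muc1 (0.05). Median scaling turned Cebpd (0.06) and Col3a1 (0.01), and the authors' values turned Cebpd (0.02). Spike-in scaling turned Rps21 (-0.01), Rpl36 (-0.41), Slc2a1 (-0.61), Cd14 (-0.86), Csf1r (-0.55), Fcgr2b (-0.01), Ehd3 (-0.16) and Lum (-0.64). Without 1 array, Slc2a1 ranged from -0.21 to 1.05, Cebpd from -0.40 to 0.04, Ly6g from -0.30 to 3.78, Cd14 from -0.28 to 0.61, Col3a1 from -1.73 to 1.25 and Lum from -1.60 to 2.38, and in each of these the turn came from leaving out L3 or L4.

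Of 343 other probes of called genes that passed the filter, 294 moved the same way as the probe used. No paired analysis was made, because the labels do not say that arrays of the 2 groups belong together. Slide, array design and scan each hold 1 of the 2 groups and cannot be told apart from them, and signals near background give only bounds.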
